A study of Mus musculus with 163 samples.

Results

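Mouse oocytes store transcripts of a group of NLRP genes, and 10 of them were followed here through growth in the animal and in culture: Nlrp2, Nlrp4a, Nlrp4b, Nlrp4e, Nlrp4f, Nlrp5, Nlrp9a, Nlrp9b, Nlrp9c and Nlrp14. They were chosen by name from the NLRP genes known from oocytes, with earlier results of these data known. All 10 were found among the 21950 genes of the count table. Nlrp4c and Nlrp4g, which also have reads here, are not among the 10 and do not enter sums over the family. RNA was sequenced from 163 single mouse oocytes in 7 groups. Growing oocytes (GROs) came from reconstituted ovaries made with primordial germ cell-like cells of the BVSC-iPSC line, a single induced pluripotent line with Blimp1-Venus and Stella-ECFP reporters (23 oocytes), from reconstituted ovaries made of dissociated E12.5 embryonic gonads (24), or from ovaries in vivo (24). Fully grown oocytes (FGOs) came from the same 3 sources (24 iPSC, 24 gonad and 20 in vivo) and from follicles isolated at 6 dpp, that is 6 days after birth, and grown in culture (24). For the iPSC groups the germ cell-like cells were combined with gonadal somatic cells of E12.5 Swiss Webster embryos, and the study notes that some germ cells of those gonads may remain in them. The strain of the other groups and the age of the in vivo oocytes are not given in the sources used here, so strain and source cannot be told apart. Granulosa cells and zona pellucida were removed before lysis.

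NLRP proteins join a NACHT nucleotide-binding domain to leucine-rich repeats. Several members of the family sense infection or damage and build inflammasomes in immune cells, whereas a separate, rodent-expanded set is transcribed in the growing oocyte and handed to the embryo as a maternal store. NLRP5 (MATER) and NLRP4F belong to the subcortical maternal complex, together with OOEP (FLOPED), TLE6, KHDC3 (FILIA) and ZBED3, a protein assembly under the oocyte surface that the early embryo needs for cleavage. NLRP14 is known for its part in keeping UHRF1 and the calcium exchanger SLC8B1 stable, and NLRP2 for effects of maternal loss on early development. The roles of the Nlrp4 and Nlrp9 copies are less well understood.

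In the GRCm38 assembly 9 of the 10 genes lie on chromosome 7. Nlrp9c (chr7:26364691-26403700), Nlrp4a (chr7:26435113-26476142) and Nlrp9a (chr7:26535023-26574148) are neighbours. Nlrp4e (chr7:23301192-23362277) and Nlrp5 (chr7:23385889-23441923) form another pair, and Nlrp9b (chr7:19991393-20062942), Nlrp4b (chr7:10687793-10730168), Nlrp2 (chr7:5298547-5351035) and Nlrp14 (chr7:107113455-107198103) stand apart. Nlrp4f lies on chromosome 13 (chr13:65177111-65205716).

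Some of the genes are close copies, which bears on how reads were assigned. The coding sequences of Nlrp9a and Nlrp9c were 87.7% identical, those of Nlrp9a and Nlrp9b 84.4% and those of Nlrp9b and Nlrp9c 83.4%. Among the Nlrp4 genes, Nlrp4a and Nlrp4e were 86.1% identical and Nlrp4e and Nlrp4f 84.0%, while Nlrp4b stood at 78.4% to 79.4% with the other Nlrp4 genes. The closest pair held a gene outside the 10: Nlrp4e and Nlrp4c were 93.9% identical. To show how alike these genes are at the length of a sequencing read, coding positions 589 to 678 of Nlrp9a and the aligned bases of Nlrp9b and Nlrp9c are given, with the bases that differ from Nlrp9a in capitals. They lie at chr7:26557547-26557636 (plus strand, exon 3), chr7:20023428-20023517 (plus strand, exon 3) and chr7:26385475-26385564 (minus strand, exon 2), in GENCODE M21 transcripts on GRCm38.
Nlrp9a: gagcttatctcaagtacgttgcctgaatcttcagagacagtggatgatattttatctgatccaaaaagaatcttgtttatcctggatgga
Nlrp9b: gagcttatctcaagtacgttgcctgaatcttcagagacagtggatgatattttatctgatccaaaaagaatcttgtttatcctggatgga
Nlrp9c: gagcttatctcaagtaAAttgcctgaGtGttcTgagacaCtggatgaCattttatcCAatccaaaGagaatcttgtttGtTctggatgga
In this window Nlrp9b had 0 differences from Nlrp9a and Nlrp9c had 12.

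The same was done for Nlrp4e at coding positions 121 to 210, beside Nlrp4c and Nlrp4a, with the bases that differ from Nlrp4e in capitals. The windows lie at chr7:23301402-23301491 (plus strand, exon 1), chr7:6060715-6060804 (plus strand, exon 1) and chr7:26444332-26444421 (plus strand, exon 3).
Nlrp4e: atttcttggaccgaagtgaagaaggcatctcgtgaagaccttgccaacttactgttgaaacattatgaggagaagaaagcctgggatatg
Nlrp4c: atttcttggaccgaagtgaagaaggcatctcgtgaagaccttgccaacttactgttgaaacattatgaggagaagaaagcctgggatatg
Nlrp4a: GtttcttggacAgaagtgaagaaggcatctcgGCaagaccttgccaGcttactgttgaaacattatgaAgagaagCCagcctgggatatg
Nlrp4c had 0 differences from Nlrp4e here and Nlrp4a had 8. Over the whole transcript, 79.8% of the 75-base windows of Nlrp4e, the length of the reads, were found in no other gene's transcripts, and the rest were shared with Nlrp4c and 5 predicted genes. The other members were better separated, from 94.9% unique windows in Nlrp5, which shares sequence with the pseudogene Nlrp5-ps, to 100% in Nlrp2, Nlrp4b and Nlrp14. Counts of Nlrp4e are therefore uncertain. Only uniquely mapped reads were counted, so reads from its shared windows may be missing. The exons of Nlrp2 overlap those of Gm5065 on the opposite strand, and the sources do not say whether strand was used in counting.

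**Figure D1:**
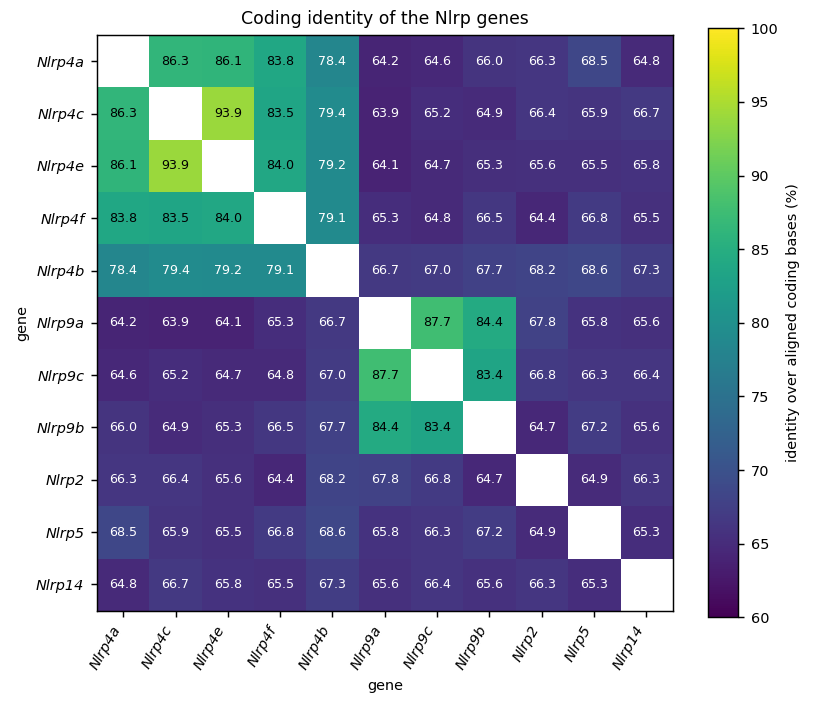
Identity in percent between the coding sequences of the 10 NLRP genes and Nlrp4c, each cell being 1 pair. The Nlrp4 and Nlrp9 genes form separate blocks, with Nlrp4e and Nlrp4c the closest pair at 93.9%, and pairs outside these blocks reach at most 68.6%.

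All 10 genes were detected in every group, and all 10 oocyte markers examined, such as Gdf9 and Ddx4, were present in each group at 67.8 CPM or more, CPM being the counts of a gene per 1000000 (1 M) reads of its library. Library totals ran from 2.17 to 13.7 M reads with a median of 6.93 M reads. Levels are given as CPM pooled over the oocytes of a group, with exact Poisson 95% intervals, which cover counting error only because amplified reads are not independent molecules, and with the lowest, median and highest oocyte. The labels name no animal or culture behind an oocyte, so each group counts as 1 sample, no test was made between groups, and the oocyte ranges describe spread within a group. CPM is a share of a library, so fewer transcripts of a gene and more of all others cannot be told apart.

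Compared per length, the family was dominated by Nlrp14. By RPKM, the CPM divided by exonic length in kilobases, pooled over a group, Nlrp14 made up 54.9% of the summed level of the 10 genes in in vivo GROs, Nlrp5 19.7% and Nlrp4f 8.53%. In in vivo FGOs the shares were 47.4%, 11.4% and 11.2%. In FGOs from culture the share of Nlrp14 was lower still, at 34.8% in iPSC FGOs, 39.9% in gonad FGOs and 36.2% in 6 dpp FGOs. Nlrp4f made up 21.7%, 17.4% and 19.9% of the family in these 3 groups and came second, ahead of Nlrp5 at 7.71% to 8.11%. At the other end Nlrp4e never passed 1.22%. The study counted reads over 1 isoform per gene, and that of Nlrp9b has only 1888 exonic bases in the deposited table. Its RPKM uses this same length. Its share in iPSC GROs was 4.77% by RPKM and 2.45% by CPM, which takes no account of length.

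As a share of all reads, the 10 genes together took 2.62%, 2.33% and 2.68% in iPSC, gonad and in vivo GROs. They took 1.04%, 1.21% and 1.16% in iPSC, gonad and 6 dpp FGOs and 2.08% in in vivo FGOs. Summed over the members, in vivo FGOs lay between 15648 and 25849 CPM with a median of 20775 CPM, and the highest oocyte of the 3 cultured FGO groups lay at 15674 CPM, in the 6 dpp group. The ranges of cultured and in vivo FGOs thus touched only at their ends.

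**Figure D2:**
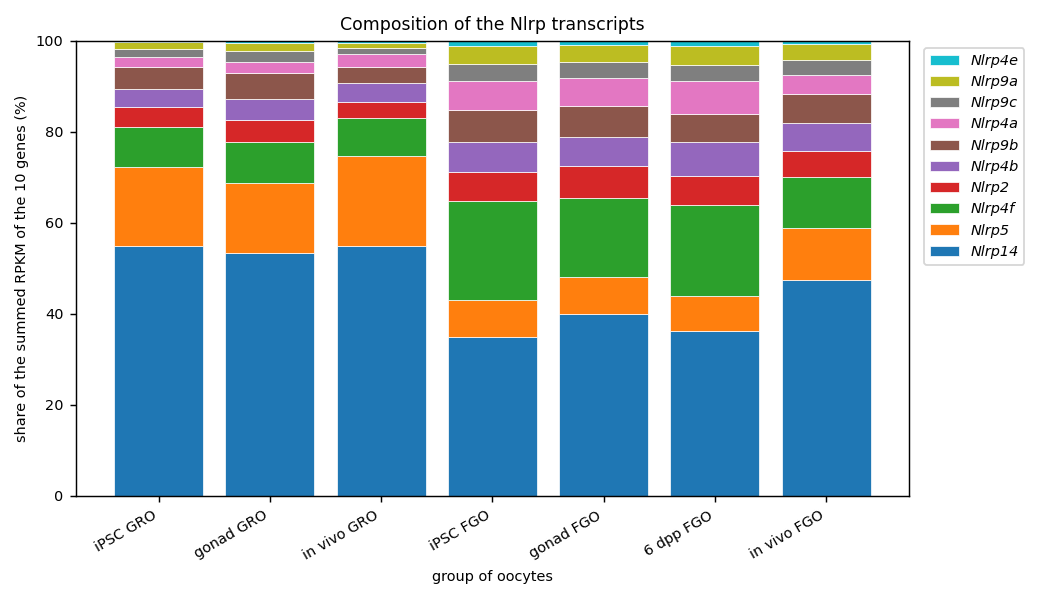
Share of each gene in the summed pooled RPKM of the 10 NLRP genes, in percent, stacked for the 7 groups. Nlrp14 is the largest part in every group, from 34.8% in iPSC FGOs to 54.9% in iPSC and in vivo GROs.

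**Figure D3:**
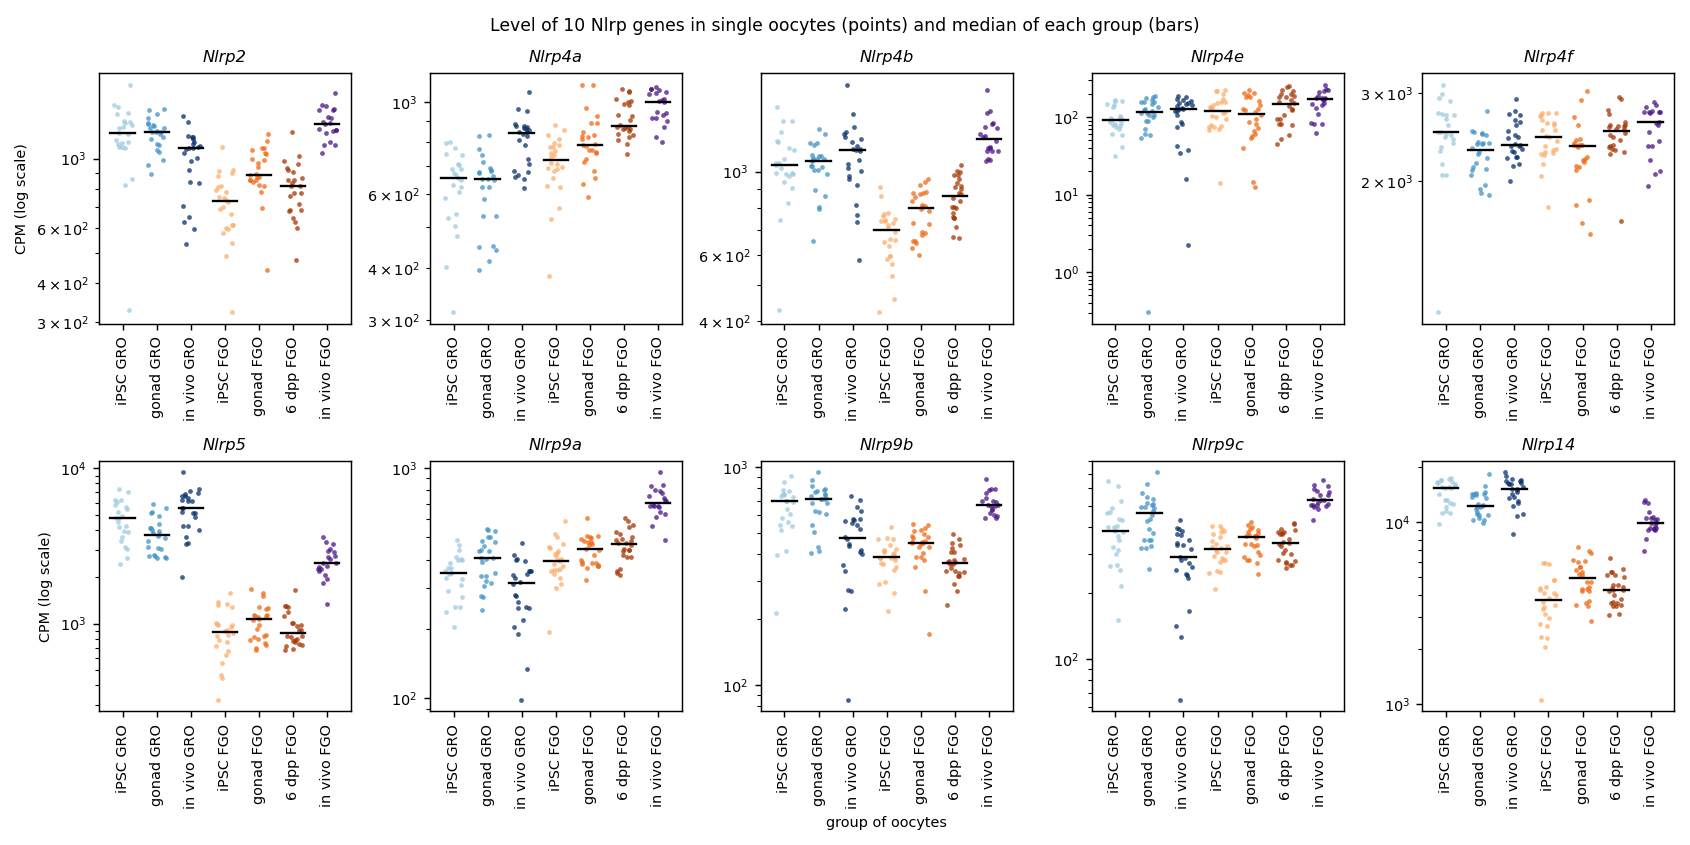
CPM of each NLRP gene on a log scale, with 1 point per oocyte and a bar at the median of each of the 7 groups. Nlrp5 and Nlrp14 are lower in cultured FGOs than in all GRO groups, Nlrp4f is nearly level, and Nlrp4e has a tail of low oocytes.

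The first question was how the genes differ between growing and fully grown oocytes in vivo. Nlrp5 was more than 2-fold lower in FGOs and Nlrp9a more than 2-fold higher, and the other 8 members, Nlrp14, Nlrp9b and Nlrp9c among them, differed by less than 2-fold. Ratios are of pooled CPM plus 0.5, on the log2 scale, over genes above 1 CPM in at least 3 oocytes of either group, and a ratio of at least 2-fold is called.

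Nlrp5, the MATER gene, was at 5515 CPM (95% interval 5503 to 5526) in in vivo GROs, with the lowest oocyte at 1985, the median at 5578 and the highest at 9443 CPM. In in vivo FGOs it was at 2533 CPM (2525 to 2541), with oocytes from 1335 over a median of 2456 to 3602 CPM. The groups overlapped, with 3 of 20 FGOs below the lowest GRO, and all 20 FGOs below the median GRO. The log2 ratio was -1.12, or 2.18-fold lower, and lay between -1.16 and -1.08 when each oocyte was left out in turn. Nlrp5 was the 1 member called lower, against 13.2% of the 13148 genes compared.

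Nlrp14 was at 14810.2 CPM (14791 to 14829) in in vivo GROs, with oocytes from 8595 over a median of 15186 to 18725 CPM. In in vivo FGOs it was at 10113.5 CPM (10097 to 10129.9), from 6919 over a median of 9852 to 13147 CPM. All 20 FGOs lay below the median GRO, 2 of them below the lowest, and the ratio of -0.55 (1.46-fold lower) was not called.

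Nlrp9a, Nlrp9b and Nlrp9c had ratios above 0. Nlrp9a was at 301 CPM (298 to 304) in in vivo GROs, with oocytes from 98.2 over a median of 316 to 471 CPM, and at 716 CPM (712 to 720.4) in in vivo FGOs, from 484 over a median of 704 to 957 CPM. No FGO overlapped with a GRO, and the log2 ratio was 1.25 (2.38-fold higher, 1.21 to 1.28 with single oocytes left out). Nlrp9c went from 287 CPM (285 to 290.0) in GROs, with oocytes from 64.9 over a median of 291 to 429 CPM, to 541 CPM (537 to 545) in FGOs, from 431 over a median of 529.7 to 656 CPM. Again all 20 FGOs were above the highest GRO, at a log2 ratio of 0.91 (1.88-fold). Nlrp9b was at 469.5 CPM (466 to 473) in GROs, with oocytes from 85.2 over a median of 472 to 733 CPM, and at 689 CPM (685 to 694) in FGOs, from 581 over a median of 669.8 to 881 CPM. It overlapped, with 5 of 20 FGOs above the highest GRO and all 20 above the median GRO, at a log2 ratio of 0.55 (1.47-fold). Nlrp9a was the 1 member called at least 2-fold higher, against 10.4% of genes. The 2 members with every FGO above every GRO, Nlrp9a and Nlrp9c, compare with 2.26% of genes.

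The remaining members were not called in vivo. The log2 ratio of FGOs to GROs was 0.39 for Nlrp2, 0.27 for Nlrp4a, 0.18 for Nlrp4b, 0.49 for Nlrp4e and 0.06 for Nlrp4f, and in each of them the ranges overlapped. Nlrp4f, the other member of the subcortical maternal complex, had the narrowest band of levels as a ratio of highest to lowest group. Over the 7 groups its pooled level ran from 2272 to 2533 CPM. In all, 8 of 10 members had a ratio above 0, against 43.8% of genes, and the median over the members was 0.33 against -0.11 over all genes.

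Growth in culture was compared in the same way, within each source. Nlrp5 and Nlrp14 were more than 2-fold lower in FGOs of both cultured sources, and the other 8 members, Nlrp9b and Nlrp9c included, were within 2-fold. In the gonad groups Nlrp5 was at 3812 CPM in GROs (oocytes from 2656 over a median of 3705 to 5889) and at 1043 CPM in FGOs (676, 1062 and 1676). The log2 ratio was -1.87 (3.65-fold lower), and every FGO lay below every GRO. Nlrp14 was at 12723 CPM in gonad GROs (9929, 12304 and 18369.7) and at 4943 CPM in gonad FGOs (2858, 4909 and 7297), also without overlap, at a ratio of -1.36 (2.57-fold lower). These 2 members were called lower, against 9.98% of genes, and 0 were called higher, against 5.82%. The same 2 had every FGO below every GRO, which 2.62% of genes had.

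The iPSC groups differed in the same direction. Nlrp5 was at 4766 CPM in iPSC GROs (oocytes from 2438 over a median of 4758 to 7321) and at 894 CPM in iPSC FGOs (321, 883 and 1563), a log2 ratio of -2.41 (5.33-fold lower). Nlrp14 was at 14599.9 CPM in iPSC GROs (9702, 15405.5 and 17495) and at 3701 CPM in iPSC FGOs (1056, 3749 and 5994), a ratio of -1.98 (3.94-fold lower). Neither gene's groups overlapped, as for 5.62% of genes, and both were called lower, against 15.3% of genes. Nlrp5 was also past 4-fold lower, as were 3.61% of genes. Again 0 members were called higher, against 6.69%.

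Nlrp9b was at 686 CPM in gonad GROs (oocytes from 405 over a median of 716 to 946) and at 434 CPM in gonad FGOs (171, 449 and 551), a log2 ratio of -0.66 with 7 of 24 FGOs below the lowest GRO. In the iPSC groups its levels were 643 and 383 CPM, a ratio of -0.75. In neither source did an FGO reach the median GRO. Nlrp9c was at 453 CPM in gonad GROs (258, 464 and 710.5) and at 342 CPM in gonad FGOs (244, 359.7 and 419.9), a ratio of -0.41, with 0 of 24 FGOs above the median GRO. In the iPSC groups its ratio was -0.27, and 4 of 24 FGOs were above that median. Nlrp9a stayed above 0, at ratios of 0.10 and 0.21.

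Of the members outside these, Nlrp2 had ratios of -0.40 in the gonad and -0.73 in the iPSC groups, with 12 of 24 gonad FGOs below the lowest gonad GRO, and Nlrp4b had ratios of -0.43 and -0.64. Nlrp4a was higher in FGOs in both sources, at 0.37 and 0.17. The ratio of Nlrp4e was -0.04 in the gonad and 0.37 in the iPSC groups, and that of Nlrp4f was -0.00 and -0.03, with a sign that flips to above 0 under other scalings of the libraries. Below 0 stood 8 of 10 members in the gonad groups, against 53.3% of genes, and these include Nlrp4e and Nlrp4f, whose signs turn with the scaling or with 1 oocyte left out. In the iPSC groups 7 of 10 were below 0, against 56.6%, Nlrp4f again among them. The medians over the members were -0.40 and -0.45, and those over all genes -0.05 and -0.11. Of the 10 oocyte markers, 2 were called lower in FGOs in vivo, 4 in the gonad and 5 in the iPSC groups. Over all genes the shares called lower were 13.2%, 9.98% and 15.3%.

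**Figure D4:**
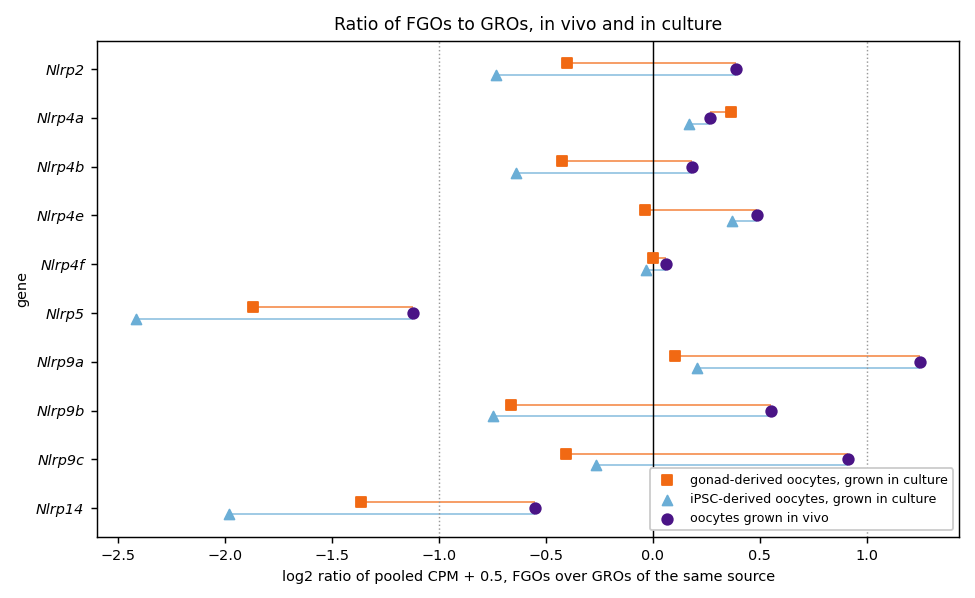
Log2 ratio of pooled CPM between FGOs and GROs for each NLRP gene, with circles for in vivo, squares for gonad and triangles for iPSC oocytes. Nlrp9b and Nlrp9c are above 0 in vivo and below 0 in both cultured sources, and Nlrp5 and Nlrp14 are below 0 in all 3.

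Set beside each other, the ratios in culture were below those in vivo for nearly every member. The culture ratio minus the in vivo ratio, on the log2 scale, was -1.15 for Nlrp9a, -1.22 for Nlrp9b and -1.32 for Nlrp9c in the gonad groups, and these 3 members reached -1 or less, against 6.32% of the 13723 genes compared. The exception to the direction was Nlrp4a at 0.10, so that 9 of 10 members were below 0, against 49.3% of genes. In the iPSC groups 6 members reached -1 or less, against 10.3% of 13798 genes, namely Nlrp14 at -1.43, Nlrp9b at -1.30, Nlrp5 at -1.29, Nlrp9c at -1.18, Nlrp2 at -1.12 and Nlrp9a at -1.04. All 10 were below 0, against 54.9% of genes, with Nlrp4a and Nlrp4f closest to it at -0.10 each. Both differences use the same in vivo oocytes, so they are not independent of each other.

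GROs were compared next, which bears on the derivation of germ cells from iPSCs and on differentiation in cultured ovaries. Between iPSC and gonad GROs the ratios of the 10 members lay between -0.26 for Nlrp4e and 0.32 for Nlrp5, and 0 members were called, against 2.03% of genes higher and 1.8% lower. Gonad against in vivo GROs gave 0 called members, against 4.3% of genes higher and 2.75% lower, and iPSC against in vivo GROs gave 0, against 5.61% and 4.38%.

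Below that threshold, the Nlrp9 genes stood higher in both cultured GRO groups. Nlrp9c was 1.58-fold higher in gonad than in vivo GROs (log2 ratio 0.66), with 14 of 24 gonad GROs above the highest in vivo GRO and 23 above the median. For Nlrp9b the ratio was 0.55, with 10 of 24 above the highest, and for Nlrp9a 0.43, with 7 of 24. In iPSC GROs Nlrp9b was 1.37-fold and Nlrp9c 1.33-fold higher than in vivo, each with 8 of 23 oocytes above the highest in vivo GRO, and Nlrp9a stood at 0.19. Nlrp4a was lower, with ratios of -0.37 in gonad and -0.36 in iPSC GROs, and none of the 24 gonad or 23 iPSC GROs reached the in vivo median of 842 CPM. Nlrp5 was lower in gonad GROs, at -0.53, with 1 of 24 above the in vivo median. Both comparisons use the same in vivo GROs. The study describes the iPSC and gonad GROs as larger than the in vivo GROs, and it took oocyte diameter into account for some of its gene clusters. No selection by size was made here. The part of oocyte size in these values, and in the ratios of FGOs to GROs, was not tested.

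Among FGOs, all 10 members had their highest pooled level in the in vivo group. The 6 dpp group, whose follicles had begun to grow in the animal, was set against it. These oocytes passed through follicle culture but not through the earlier culture steps. Strain and source cannot be told apart in this comparison either. Nlrp14 was at 4279 CPM in 6 dpp FGOs (4269 to 4289), with oocytes from 3082 over a median of 4220.4 to 6314.5 CPM, all below the lowest in vivo FGO at 6919 CPM. The ratio was -1.24 (2.36-fold lower, -1.27 to -1.21 with single oocytes left out). Nlrp5 was at 947 CPM (942 to 952), with oocytes from 672 over a median of 869.8 to 1645 CPM, and 23 of 24 lay below the lowest in vivo FGO at 1335 CPM. Its ratio was -1.42 (2.67-fold lower, -1.46 to -1.39). These 2 members were called lower, against 3.12% of genes, and 0 higher, against 1.25%.

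Nlrp9b in 6 dpp FGOs was at 363 CPM, with oocytes from 232 over a median of 363 to 491 CPM, against a lowest in vivo FGO of 581 CPM, a ratio of -0.92 (1.90-fold lower). Nlrp9c was at 334 CPM, from 260.4 over a median of 338 to 416 CPM, against a lowest in vivo FGO of 431 CPM, a ratio of -0.70 (1.62-fold lower). Nlrp4b was at 854 CPM, from 665 over a median of 862 to 1043 CPM, against a lowest in vivo FGO of 1065 CPM, a ratio of -0.54. With Nlrp14, these 4 members had every 6 dpp FGO below every in vivo FGO, which 0.24% of genes had. Nlrp2 nearly did, with 23 of 24 below at a ratio of -0.69, and Nlrp9a had 15 of 24 below at -0.63. Nlrp4a (-0.10), Nlrp4e (-0.12) and Nlrp4f (-0.02) differed by 1.09-fold or less. All 10 ratios were below 0, against 54.5% of genes, with a median of -0.66 against -0.04 over all genes.

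Gonad and iPSC FGOs gave values of the same order against the same in vivo FGOs. In gonad FGOs the ratio was -1.28 for Nlrp5 (2.43-fold lower, 21 of 24 oocytes below the lowest in vivo FGO) and -1.03 for Nlrp14 (2.05-fold lower, 23 of 24), and these 2 were called lower, against 3.43% of genes, with 0 called higher, against 2.14%. The call of Nlrp14 was lost, at a ratio of -0.98, without in vivo FGOs 5, 7, 19 and 22, which lay nearest to GROs in an earlier analysis of these data. Every gonad FGO was below every in vivo FGO for the 3 members Nlrp4b (-0.68), Nlrp9b (-0.67) and Nlrp9c (-0.66), which 0.146% of genes showed, and Nlrp9a stood at -0.71 with 18 of 24 below. All 10 members were below 0, against 51.2% of genes, with a median of -0.66 against -0.01.

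In iPSC FGOs the ratio was -1.50 for Nlrp5 (2.83-fold lower) and -1.45 for Nlrp14 (2.73-fold lower), the 2 members called lower, against 10.3% of genes, with 0 called higher, against 4.21%. Every iPSC FGO was below every in vivo FGO for the 4 members Nlrp14, Nlrp4b (-0.88), Nlrp9b (-0.85) and Nlrp9c (-0.77), against 2.04% of genes. Nlrp2 followed at -0.86 and Nlrp9a at -0.85, with 23 and 21 of 24 oocytes below the in vivo range, and Nlrp4a reached -0.46 with 20 of 24. All 10 members were below 0, against 55.5% of genes, with a median of -0.85 against -0.08. Of the 10 oocyte markers, 3 were also called lower in iPSC than in vivo FGOs, against 10.3% of genes, with a median of -0.63. In 6 dpp and gonad FGOs 0 of these markers were called lower, with medians of -0.43 and -0.39.

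Nlrp4f is the exception that runs through these comparisons. It was 1.02-fold, 1.11-fold and 1.04-fold lower in 6 dpp, gonad and iPSC FGOs than in vivo, and its oocytes overlapped in all 3. Between cultured FGO groups no member was called. For iPSC against gonad FGOs the ratios ran from -0.42 for Nlrp14 to 0.14 for Nlrp4e and 0 members were called, against 2.3% of genes higher and 3.9% lower. Nlrp14 was 1.34-fold lower in iPSC FGOs, with 6 of 24 below the lowest gonad FGO and 3 above the median, and Nlrp2 was 1.27-fold lower, with 4 of 24 above the median. For gonad against 6 dpp FGOs they ran from -0.37 for Nlrp4e to 0.25 for Nlrp9b with 0 called, against 1.64% and 0.948%.

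**Figure D5:**
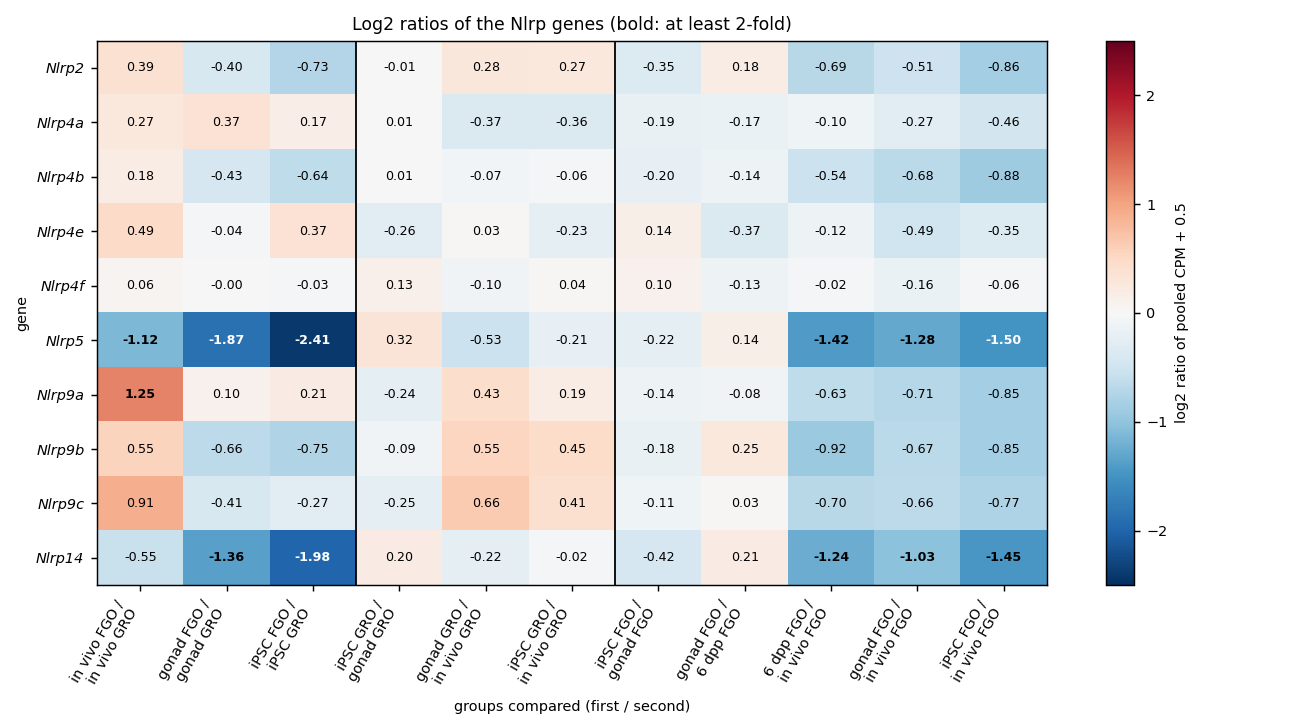
Log2 ratio of pooled CPM for the 10 NLRP genes in 11 comparisons of groups, as a heat map with ratios of at least 2-fold in bold. Nlrp5 and Nlrp14 hold all bold values but that of Nlrp9a in growth in vivo, and the 3 comparisons with in vivo FGOs are below 0 throughout.

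Transcripts of follicle cell markers varied between the groups, and the order of the FGO groups depended on whether Cyp19a1 was counted. Of 9 granulosa markers 7 are in the table, and none of these was at 0 in any group. Above 1 CPM were 2, 2 and 3 of them in iPSC, gonad and in vivo GROs, and 3, 4, 5 and 6 in iPSC, gonad, 6 dpp and in vivo FGOs. Their sum had medians of 85.1, 86.5, 85.4 and 66.9 CPM in in vivo, 6 dpp, gonad and iPSC FGOs. Cyp19a1 made up most of it in the median oocyte of every group. Its own pooled level was 64.1, 74.7, 77.2 and 61.9 CPM in these FGOs, so it was not highest in vivo. The sum is therefore also given without Cyp19a1, by lowest, median and highest oocyte. Without Cyp19a1 the sum was 0.593, 13.3 and 309.9 CPM in in vivo FGOs and 1.91, 11.5 and 1464 CPM in 6 dpp FGOs. It was 0.298, 5.85 and 61.0 CPM in gonad FGOs and 0, 3.71 and 20.0 CPM in iPSC FGOs. In in vivo GROs it was 0, 4.97 and 12.7 CPM, and the other GRO groups reached at most 9.26 CPM. The highest sums were in in vivo FGO 19 and 6 dpp FGO 12, and no count of called members changed when either was left out. Theca and stroma markers reached 169.9 CPM in 6 dpp FGO 12 and blood markers at most 1.44 CPM in any oocyte. The part of such cells in the members' ratios was not tested beyond that.

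Ordered by level, the groups fell into a few steps for some members and none for others. For Nlrp14, all GRO groups came first, then in vivo FGOs, then cultured FGOs, and the quartile ranges were apart at both steps although full ranges overlapped. Nlrp5 showed the same 2 steps. Nlrp9a had 1 such step, between in vivo and 6 dpp FGOs, Nlrp9b 1, between in vivo FGOs and in vivo GROs, and Nlrp4b 1, between iPSC GROs and 6 dpp FGOs. For Nlrp2, Nlrp4a, Nlrp4e, Nlrp4f and Nlrp9c, neighbours in the order did not differ beyond the spread of their middle oocytes.

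Spread among oocytes of a group was widest for Nlrp4e. Its coefficient of variation ran from 34.9% in in vivo FGOs to 54.6% in gonad FGOs and was the highest of all members in all 7 groups. The median for genes at 50 CPM or more was 13.2% to 20.4%. Nlrp4e fell under 20 CPM, a limit set after its values were seen, in 6 of 163 oocytes (3.68%). The lowest was gonad GRO 4, with 2 reads or 0.303 CPM against a group median of 116 CPM, in a library of 6.60 M reads. In the same oocyte the nearest copies of Nlrp4e were at 71.3 CPM for Nlrp4c (group median 76.6), 534 CPM for Nlrp4a (653) and 2765 CPM for Nlrp4f (2308), the last being the highest of its group. In vivo GRO 9 followed with 16 reads (2.24 CPM), then gonad FGO 7 (12.4 CPM), iPSC FGO 8 (13.9), gonad FGO 8 (14.6) and in vivo GRO 16 (16.1). The 6 libraries held 6.60 to 7.88 M reads, near the median of all, and between 3 and 10 of the 10 members were below their group's median in them.

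Low values of several members met in single oocytes. iPSC GRO 8 was the lowest of its group in 7 members and below the group median in all 10, while its Zp3, at 13743 CPM against a median of 10799.7, and its Gdf9, at 14247 against 11164 CPM, were above theirs and its Bmp15, at 1672 against 3235 CPM, was below. In vivo GRO 19 was lowest in 5 members, including Nlrp9b at 85.2 and Nlrp9c at 64.9 CPM, whereas its Nlrp5 was above the median, at 6936 CPM. In vivo FGO 18 and 6 dpp FGO 3 were lowest in 5 members each, and iPSC FGO 2 in 4, with a family sum of 5847 CPM, the lowest of all oocytes. Gonad FGO 19 was lowest in Nlrp2, Nlrp9b and Nlrp14, at 439.6, 171 and 2858 CPM, and its Zp3 was at 270.2 CPM against a group median of 3980.1, whereas its Gdf9 was above the median and its Nlrp4f, at 3035 CPM, the highest of the group. With any 1 oocyte left out, each count of called members stood as given.

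Pairs of members also varied together within groups. Pearson's r of log2(CPM + 1) was computed over the 20 to 24 oocytes of each group and is given as a description, since oocytes of a group share their source and the genes share a library. Nlrp5 and Nlrp14 had a median r of 0.79 over the 7 groups (0.43 to 0.95), Nlrp9a and Nlrp9b 0.79 (0.28 to 0.85), Nlrp2 and Nlrp4b 0.76, and Nlrp4a and Nlrp4f 0.72. At the other end Nlrp9c and Nlrp14 stood at -0.07, with groups from -0.50 to 0.60. With the library total, the strongest r of any member in any group was 0.40, for Nlrp4e in 6 dpp FGOs.

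Over all 163 oocytes the non-member most like Nlrp14 among 8783 genes at 5 CPM or more was Padi6, the peptidylarginine deiminase of the oocyte lattices, at r = 0.98. An r over all oocytes also reflects differences in level between groups, and for single members group means were not removed. Padi6 was also the non-member nearest to Nlrp5, at 0.96, the value that Nlrp5 and Nlrp14 had with each other. For other members the nearest non-members were Enpp5 for Nlrp2 (0.81), Dnajc3 for Nlrp4a (0.74), Pla2g4c for Nlrp4b (0.78), A1bg for Nlrp9a (0.80), Pglyrp2 for Nlrp9b (0.78) and Vmn2r25 for Nlrp9c (0.77). Nlrp4e (Mpp5, 0.39) and Nlrp4f (Adpgk, 0.49) had lower values. A fellow member was nearer for Nlrp4e (Nlrp4a, 0.41), Nlrp4f (Nlrp4a, 0.54), Nlrp4b (Nlrp2, 0.79) and Nlrp9b (Nlrp2, 0.81), and Nlrp2 was as near to Nlrp9b as to Enpp5. To the mean of the members, Gm11426 (0.71), Scg3 (0.71), Enpp5 (0.71), Zfp345 (0.70) and 4931431C16Rik (0.70) were nearest. With group means removed, the list was Nlrp4g (0.72), Bmp15 (0.66), Enpp5 (0.64), Scg3 (0.64) and Efhc2 (0.63).

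Transcripts of the genes that encode partners of NLRP5 in the subcortical maternal complex and the lattices did not all share the pattern of Nlrp5. Of 5 partner genes, 2 were at least 2-fold lower in FGOs than GROs in vivo, 3 in the gonad and 3 in the iPSC groups, against 13.2%, 9.98% and 15.3% of all genes, and none was called higher. The largest ratios were those of Khdc3 in vivo (-1.31) and of Padi6 in gonad (-1.63) and iPSC oocytes (-2.34). Against in vivo FGOs, 1 of 5 was called lower in 6 dpp, 1 in gonad and 2 in iPSC FGOs, with Padi6 at -1.10, -1.04 and -1.45, where 3.12%, 3.43% and 10.3% of all genes were called lower. Khdc3 differed in order, since its 765 CPM in in vivo FGOs was the lowest of all groups, and Zbed3 was above its in vivo FGO level of 10319 CPM in all 3 cultured FGO groups, at 11856 to 14296 CPM. The 2 partners of NLRP14 were lower in FGOs than GROs in all 3 sources. Uhrf1, a reader of hemimethylated DNA, was at 481, 511 and 802 CPM in iPSC, gonad and in vivo GROs and at 275, 330.2 and 336 CPM in the FGOs of these sources, ratios of -0.80, -0.63 and -1.25, the last of them called. Slc8b1 was low throughout, from 1.64 CPM in iPSC GROs to 0.0542 CPM in iPSC FGOs, a ratio of -1.95 that was called, while its ratios of -0.94 in the gonad groups and -0.58 in vivo were not.

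Of 9 other NLRP genes listed, 8 are in the table, and their levels were uneven. Nlrp1a, Nlrp1b, Nlrp3, Nlrp6 and Nlrp10 reached at most 0.541 CPM in any group. Nlrp4c, the near copy of Nlrp4e, ran from 29.1 CPM in iPSC FGOs to 117 CPM in in vivo GROs, while Nlrp4g, at 359 to 769 CPM, lay within the range of the members. Nlrp12 ran from 0.0722 CPM in iPSC FGOs to 2.19 CPM in iPSC GROs. Growth in vivo had 0 of 4 compared genes called, and growth in culture had 2 of 3 (gonad) and 2 of 4 (iPSC) called lower, in both cases Nlrp4c and Nlrp12. Nlrp4c stood at -0.96, -1.27 and -1.61 in vivo, in gonad and in iPSC oocytes, and the low Nlrp12 at -0.32, -1.16 and -2.23. Over all genes 9.98% (gonad) and 15.3% (iPSC) were called lower. Against in vivo FGOs, 3 of 4 other NLRP genes were called lower in iPSC FGOs (Nlrp12 -1.61, Nlrp4g -1.10, Nlrp4c -1.03), where 10.3% of all genes were. In 6 dpp FGOs 1 of 3 was called lower (Nlrp12, -1.14) and in gonad FGOs 0 of 4, against 3.12% and 3.43%. Nlrp4g was also called lower in iPSC than gonad FGOs, at -1.03, as were 3.9% of genes. Of 8 inflammasome partners, Il1b was at 0 reads in all groups and Casp1 did not pass 1.40 CPM, while Casp8 was at 29.7 to 54.6 CPM. Between FGOs and GROs, 1 of 6 compared partners was called lower in vivo (Gsdmd, -1.19), 1 of 6 in the gonad groups (Pycard, -1.34) and 2 of 5 in the iPSC groups (Pycard, -2.74, and Gsdmd, -1.29), against 13.2%, 9.98% and 15.3% of all genes, and 0 were called higher. Pycard and Gsdmd are low genes here, at no more than 3.57 and 2.42 CPM, both in iPSC GROs. Among GROs, 2 of 5 partners were called higher in iPSC than gonad oocytes and 1 of 5 higher in iPSC than in vivo oocytes, against 2.03% and 5.61% of all genes, with Pycard at 1.17 and 2.13. Outside the NLRPs, Nlrc4, an inflammasome receptor of the same NACHT superfamily, was at 6.21 CPM in in vivo GROs and 46.3 CPM in in vivo FGOs (log2 ratio 2.80), and its ratios in gonad and iPSC oocytes were 1.53 and 1.80. It was the 1 gene called higher of 5 compared NLR genes in vivo and of 3 in the gonad groups, and in the iPSC groups 2 of 6 were called higher, with Naip6 at 1.56, against 10.4%, 5.82% and 6.69% of all genes.

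Promoters of members that varied together, or that are close copies, were read from RefSeq (GRCm38.p6), which matched 9 of the 10 members and gave 12 windows of 300 bases, from 250 before to 50 after a start. None is shown for Nlrp14. The motifs searched, on both strands, were CCAAT, the site of the NF-Y factor, and CANNTG, the E-box to which FIGLA and other helix-loop-helix factors of the oocyte bind. CANNTG occurred in 11 of the 12 windows, from 8 of the 9 members, and in 72.3% of all 32851 windows. CCAAT occurred in 8 of the 12, from 7 members, and in 37.4% of all windows. Nlrp9a and Nlrp9c, the genes with every in vivo FGO above every GRO, share a run of 106 identical bases in these windows. The longest run was 9 bases between Nlrp9a and Nlrp9b and 8 between Nlrp9b and Nlrp9c. The only window of Nlrp9b, at chr7:20007773-20008072, lies inside the gene, which begins at chr7:19991393. Those of Nlrp9a and Nlrp9c lie at the gene starts. The runs with Nlrp9b may therefore not compare matching starts and do not show how alike the promoters are. In growth in culture Nlrp9a stood at 0.10 and 0.21 and Nlrp9c at -0.41 and -0.27. The median r within groups was 0.65 for Nlrp9a with Nlrp9c and 0.79 for Nlrp9a with Nlrp9b. Any link between shared promoter bases and levels was not tested. The 110 bases before the start are given, with CCAAT and CANNTG matches on either strand in capitals, at chr7:26534913-26535022 (plus strand) and chr7:26403701-26403810 (minus strand).
Nlrp9a: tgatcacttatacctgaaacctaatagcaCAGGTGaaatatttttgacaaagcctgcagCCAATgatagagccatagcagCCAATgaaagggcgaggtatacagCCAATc
Nlrp9c: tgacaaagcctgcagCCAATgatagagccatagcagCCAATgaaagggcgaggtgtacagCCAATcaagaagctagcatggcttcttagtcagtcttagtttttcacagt
Each of these windows holds CCAAT 3 times.

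Nlrp4a and Nlrp4b are shown because 1 of the 2 windows of Nlrp4a and both windows of Nlrp4b hold CCAATCACATGG, which overlaps both motifs since it contains a CCAAT and a CANNTG. It was found after the sequences had been seen, as the longest stretch opening with CCAAT that windows of Nlrp4a, Nlrp4b and the non-member Nlrp4c have in common. The window of the other annotated start of Nlrp4a, at chr7:26434863-26435162, holds neither this stretch nor CCAAT. The stretch occurs in 7 of the 32851 windows (0.0213%), of 6 genes. These include Nlrp4a, Nlrp4b and Nlrp4c, from which it was drawn, so the share is partly fixed by that choice. The other genes are Dcxr, Oscp1 and Tmem52b. The bases lie at chr7:26435504-26435613 and chr7:10687683-10687792, both on the plus strand.
Nlrp4a: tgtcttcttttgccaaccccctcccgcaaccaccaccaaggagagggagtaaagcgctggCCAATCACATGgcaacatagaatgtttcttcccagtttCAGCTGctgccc
Nlrp4b: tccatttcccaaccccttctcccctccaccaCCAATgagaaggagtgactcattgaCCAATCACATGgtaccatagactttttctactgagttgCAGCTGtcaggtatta
The 2 genes differed in level between groups: Nlrp4a was lower in cultured than in vivo GROs, at -0.36 and -0.37, where Nlrp4b stood at -0.06 and -0.07. Within groups their median r was 0.63 (0.35 to 0.73). A match describes letters in a window and is no evidence of binding. Of the 4 oocyte transcription factors in the table, 2 were called lower in FGOs than GROs in vivo, 2 in the gonad and 3 in the iPSC groups, and 0 higher, where 13.2%, 9.98% and 15.3% of all genes were called lower. Sohlh1 had the largest ratios, at -3.66, -2.91 and -4.22, from 6.59 to 18.3 CPM in GROs to less than 1 CPM in FGOs. Sohlh2 stood at -0.32, -0.02 and -1.14, and Nobox, which kept 929 CPM or more in every group, at 0.05, -0.39 and -0.48. Figla was at 161 CPM in in vivo GROs and 58.0 CPM in in vivo FGOs, a log2 ratio of -1.47, and lay between 44.3 and 52.9 CPM in cultured FGOs, with ratios of -1.57 and -1.61 in the gonad and iPSC groups.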

How the data were processed

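Single oocytes were lysed and amplified by Smart-seq2, and single-end reads of 75 bases were sequenced on a HiSeq 2500. The authors aligned them with STAR to GRCm38/mm10 with spike-in sequences, kept 1 placement of multiply placed reads at random, and counted uniquely mapped exonic reads with QuasR over 1 random knownGene isoform per gene. The use of strand in counting is not given in the sources used here. The deposited table holds raw counts per gene and oocyte, with the exonic length. All 163 columns were matched to labels, 0 columns were left unused and 0 pairs of columns were identical. Of 21950 genes, 21907 had a symbol by Entrez ID.

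Counts were divided by library totals (CPM) and by exonic length (RPKM). Because the labels name no animal or culture, counts were pooled over a group's oocytes, no test was run, and intervals are exact Poisson at 95%. Ratios used a pseudocount of 0.5 CPM over genes above 1 CPM in at least 3 oocytes, and 2-fold was the call. A count of 3 reads, the limit for a gene with none, corresponds to 0.0181 to 0.0207 CPM over a group. Members and lists were chosen with earlier results of these data known. Text names all members, the gene of each pathway list with the largest absolute ratio between FGOs and GROs, the 5 genes most like the members' mean with and without group means, and each member's nearest non-member, among genes at 5 CPM or more. Marker lists are given by levels, and the oocyte markers also by counts called and medians. Other names (such as Bmp15, Zp3, Gdf9, Nlrp4g, Zbed3 and Naip6) were picked after their values were seen. The study selected oocytes by size before its model, a selection not applied here. Protein identity had been planned, and identity of GENCODE M21 coding sequences by global alignment was used in its place. The pooled ratio was tested on simulated counts with Poisson noise, no spread between oocytes and changes larger than the 2-fold call. How calls behave near 2-fold was not tested by simulation. Alternatives were TMM (edgeR 4.0.16) and DESeq2 1.42.0 size factors, pseudocounts of 0.1 and 2, no filter, median or mean CPM over oocytes, CPM shares without length, each oocyte left out, and 2 sets of oocytes left out. Software was Python 3.11.15 with pandas 2.3.3, numpy 2.4.6, scipy 1.17.1, matplotlib 3.10.9 and Biopython 1.88, and R 4.3.3.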

Additional observations from a re-analysis of the deposited data

Results flagged for a closer look

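Nlrp9b and Nlrp9c stood on opposite sides of the median GRO in vivo and in culture, although none of the ratios behind this reached 2-fold. All 20 in vivo FGOs lay above the median in vivo GRO for both genes, and all 24 gonad FGOs lay below the median gonad GRO. The culture log2 ratio minus the in vivo log2 ratio was -1.22 for Nlrp9b and -1.32 for Nlrp9c. For Nlrp9b the same held in the iPSC groups, with all 24 FGOs below the median GRO and a difference of -1.30, while for Nlrp9c 4 of 24 iPSC FGOs lay above that median. These differences were not tested, since each group counts as 1 sample, and the gonad and iPSC values share the in vivo oocytes. Part of each difference lies in the GROs. Gonad GROs stood above in vivo GROs at log2 ratios of 0.55 for Nlrp9b and 0.66 for Nlrp9c, and iPSC GROs at 0.45 and 0.41. The study describes the cultured GROs as larger, and the part of oocyte size was not tested.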

How the results depend on the processing

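Of 110 member ratios, 12 were called, and all 120 values of these under the alternatives kept their direction. A call was lost 1 time: without in vivo FGOs 5, 7, 19 and 22, the count of members called between gonad and in vivo FGOs went from 2 to 1, because the log2 ratio of Nlrp14 moved from -1.03 to -0.98. None of the 98 uncalled ratios became called. The sign turned in 9 of those 98, all within 0.037 of 0, and in 0 of the 30 ratios against in vivo FGOs. Each oocyte left out in turn left every count of called members as it was. The largest move, 0.23, was that of Nlrp4e between iPSC and in vivo GROs with median in place of pooled CPM. TMM and DESeq2 size factors moved the median ratio of all genes by less than 0.1. Members were well above the level of a few reads in nearly all oocytes, Nlrp4e in gonad GRO 4 being the lowest at 2 reads, and Nlrp4e has the most reads shared with copies. No paired analysis was possible because oocyte numbers only name oocytes and each group counts as 1 sample.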
